A study of Mus musculus with 12 samples.

Results

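The genotype difference in agonist-treated brown adipose tissue, a fat depot specialised for making heat, was measured by comparing 3 ERRKO_CL libraries with 3 WT_CL libraries, which are 6 of the 12 RNA-seq libraries of the series. Both groups were male C57BL/6J Bom mice of 12 weeks kept at 30 °C, and both carried floxed Esrra and Esrrg alleles. WT mice were littermates without Cre. ERRKO mice carried an adiponectin-Cre transgene, which drives deletion in adipocytes, so that the other cells of the depot hold intact alleles. Each mouse was injected intraperitoneally at ZT 4 with 1 mg/kg CL316,243, which activates the β3-adrenergic receptor, once a day for 10 days, and was sampled 24 h after the final injection. WT_PBS and ERRKO_PBS, the same genotypes given vehicle, supplied 3 libraries each, which entered the estimate of the spread and are used to set the difference without agonist beside the difference with it.

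ERRα and ERRγ, the products of Esrra and Esrrg, are orphan nuclear receptors that bind DNA at the sequence TCAAGGTCA and act with the PGC-1 coactivators on nuclear genes for respiration, the TCA cycle and fatty acid oxidation. In brown fat, β-adrenergic signalling raises cAMP, releases fatty acids from lipid droplets and induces thermogenic genes such as Ucp1, whose product lets protons re-enter the mitochondrial matrix without making ATP. Brown and white adipocytes share lipid storage genes, while oxidative and thermogenic genes set the brown cell apart.

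All levels below are RPKM, that is reads per gene length and per library size, after scaling of the libraries by the median of ratios, and n = 3 per group. Differences are ERRKO_CL minus WT_CL in log2 of scaled RPKM plus 0.5, with their SE, and a gene was called at an adjusted p (limma, Benjamini-Hochberg over 12249 genes) under 0.05. Recovered reads ranged from 8979123 to 9559239 in WT_CL and from 12468001 to 12954186 in ERRKO_CL, so that depth and genotype cannot be told apart. The scale matters: on the deposited RPKM the median gene lay 0.63 higher in ERRKO_CL, against 0.01 after scaling. Whether the 3 libraries of a group came from separate animals is not in the labels, and p-values then measure the spread between these samples only. In whole tissue, fewer cells of a type and less RNA per cell cannot be told apart. Of the brown adipocyte markers all 9 were present in every library, and their summed level was 20375 to 21794 in WT_CL and 17940.0 to 18151 in ERRKO_CL. Without Fabp4, Adipoq and Plin1, which all adipocytes express, the other 6 summed to 4635 to 6138 in WT_CL and 601 to 636 in ERRKO_CL. In WT_CL most of that sum came from Ucp1, Cidea and Cox7a1 (means 2348, 1677 and 1279). Their means in ERRKO_CL were 36.6, 363 and 28.2. Adrb3, also among the 6, was higher in ERRKO_CL, so that the sum does not speak for every marker. The 24 skeletal muscle markers summed to 84.3 to 577 in WT_CL and 316 to 2263 in ERRKO_CL, with the highest sums in replicate 3 of each group.

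The targeted genes were examined first. Esrra (chromosome 19, 6910977 to 6921813, minus strand) was at 82.9, 75.4 and 78.8 in WT_CL and 8.37, 6.70 and 8.68 in ERRKO_CL, a difference of -3.25 ± 0.16, adjusted p = 3.1e-08. All 3 ERRKO_CL libraries lay far below all 3 WT_CL libraries. Esrrg, on chromosome 1, 187608791 to 188214885, plus strand, was measured at 8.11, 6.99 and 5.6 in WT_CL and 6.36, 6.60 and 8.10 in ERRKO_CL, and the groups overlapped (0.03 ± 0.25, adjusted p = 0.94). Because whole-gene RPKM may count exons that Cre leaves in place, and the excised exons are unnamed in the labels, Esrra alone served to check the genotype (reads from retained Esrrg exons were not tested). Esrrb, the other member of the family, lay below the filter on low values. Of 13 tested genes of the ERR and PGC-1 list 3 were called higher and 4 lower (median 0.11, or 0.69 on the deposited scale), against 19.9% and 21.6% of all genes. Ppargc1a, which encodes the coactivator PGC-1α, was at 9.75, 6.14 and 8.23 in WT_CL and 13.4, 8.43 and 8.16 in ERRKO_CL, and the difference did not pass (0.29 ± 0.31, adjusted p = 0.49). Perm1, a muscle and brown fat regulator named for PGC-1 and ERR, was lower (-2.96 ± 0.45, adjusted p = 2.3e-04), and Gabpa, a factor that activates respiratory chain genes, was lower as well (-1.34 ± 0.11, adjusted p = 1.6e-06). Nrip1, which encodes the corepressor RIP140, was at 2.40, 2.79 and 2.18 in WT_CL and 5.50, 16.8 and 15.96 in ERRKO_CL and was higher (2.02 ± 0.32, adjusted p = 3.2e-04).

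Of 12249 genes tested, 5074 (41.4%) differed between ERRKO_CL and WT_CL. Higher in ERRKO_CL were 2433 (19.9%) and lower 2641 (21.6%), a split of 47.95% higher that became 91.4% on the deposited scale, where 8640 were higher and 811 lower. Differences of 2-fold or more were found in 460 higher and 779 lower genes, those of 4-fold or more in 72 and 224, and those of 8-fold or more in 15 and 49. The excess of losses among 2-fold differences turned on the deposited scale, where 2434 genes were higher and 323 lower by 2-fold or more. The larger fold classes were not counted on that scale. The 3 libraries of one group did not overlap the 3 of the other in 54.66% of all tested genes, and in 1236 of the 1239 called genes with a 2-fold difference. Highly expressed genes were called more often. 67.0% of 522 genes with a mean of at least 100 RPKM were called, 124 of them higher and 226 lower, against 23.8% of 2530 genes under 2 RPKM. Precision moved with the level, since the median SE was 0.18 in the lowest class and 0.11 to 0.15 in the others. The plot of level against difference shows these scaled values gene by gene.

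**Figure D1:**
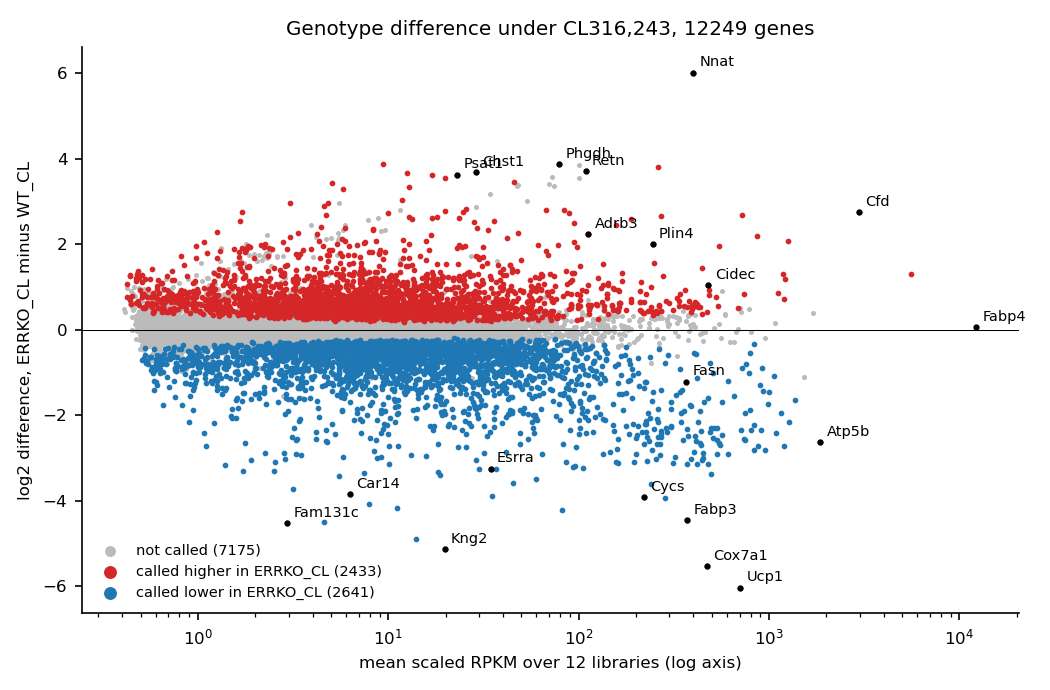
Log2 difference between ERRKO_CL and WT_CL (vertical axis) against mean scaled RPKM over 12 libraries (horizontal, log axis), 1 point per gene, with 2433 genes called higher in red, 2641 called lower in blue and 7175 not called in grey. Ucp1, Cox7a1 and Kng2 lie lowest, Nnat lies highest, and losses of 2 or more extend to highly expressed genes such as Atp5b (mean 1862 RPKM).

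Promoters were searched for the ERR recognition sequence as a description. Among RefSeq promoters on GRCm38.p6, each running from 250 bases before the start site to 50 after it, TCAAGGTCA on either strand was present in 0.423% of all 32851, in 13 of 2167 matched genes called lower (0.600%), in 6 of 1947 called higher (0.308%) and in 11 of 5683 not called (0.194%). It was in 6 of 645 genes lower by 2-fold or more (0.930%) and in 0 of 362 higher by as much, against 30 of all 9797 matched tested genes (0.306%). A looser form with any base at position 2, TNAAGGTCA, was in 1.15% of genes called lower, 0.873% called higher and 0.774% not called. That form was in 0.878% of all matched tested genes and in 1.28% of all promoters. Most of the called genes thus lacked TCAAGGTCA in this window. Among the genes named here Sdhd, Fam131c and Ccl27a held it, and the promoters of Sdhd, the one with the smallest p, and of Fam131c, the one with the most negative interaction with agonist, are printed in lower case with the matching bases in capitals. In both the match lies on the strand opposite to the gene, so that the capitals read TGACCTTGA. The promoter of Sdhd, which encodes a membrane anchor of succinate dehydrogenase, spans chr9:50603800-50604099, minus strand, and that of Fam131c, a gene of unknown function, spans chr4:141367942-141368241, plus strand.
Sdhd: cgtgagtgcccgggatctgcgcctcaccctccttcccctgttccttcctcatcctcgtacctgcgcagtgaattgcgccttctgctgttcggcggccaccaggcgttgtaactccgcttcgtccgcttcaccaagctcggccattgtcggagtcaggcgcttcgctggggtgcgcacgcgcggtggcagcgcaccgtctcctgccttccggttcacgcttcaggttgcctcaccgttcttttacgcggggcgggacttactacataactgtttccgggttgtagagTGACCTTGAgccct
Fam131c: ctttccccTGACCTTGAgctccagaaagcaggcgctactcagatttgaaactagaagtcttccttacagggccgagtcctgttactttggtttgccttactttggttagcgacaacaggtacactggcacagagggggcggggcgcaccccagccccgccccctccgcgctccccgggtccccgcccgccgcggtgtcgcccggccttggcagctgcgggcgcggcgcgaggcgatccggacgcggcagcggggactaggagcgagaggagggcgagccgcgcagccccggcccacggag
The Sdhd site begins 36 bases after the start site and the Fam131c site begins 242 bases before it. Sdhd was at 768, 711 and 742 in WT_CL and 99.3, 85.8 and 94.2 in ERRKO_CL (-2.99 ± 0.13, adjusted p = 8.4e-09), without overlap. Fam131c was at 16.6, 8.14 and 10.5 in WT_CL and 0.0337, 0 and 0 in ERRKO_CL (-4.52 ± 0.21, adjusted p = 1.4e-08): the transcript was present in every WT_CL library and listed at 0 in 2 of 3 ERRKO_CL libraries. Without agonist it was close to 0 in both genotypes.

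The 12 largest losses and 12 largest gains were taken among called genes with a mean of at least 1 RPKM whose WT_CL and ERRKO_CL libraries did not overlap, so that the separation of the groups in them was fixed by the choice. The losses covered thermogenesis, respiration, lipid handling and iron uptake. Ucp1, on chromosome 8, 83290352 to 83298452, plus strand, was measured at 2958, 1836 and 2248 in WT_CL and 27.8, 27.7 and 54.3 in ERRKO_CL (-6.03 ± 0.31, adjusted p = 3.1e-08). Cox7a1, on chromosome 7, 30184144 to 30186078, plus strand and the heart and brown fat form of a cytochrome oxidase subunit, was at 1367, 1092 and 1377 in WT_CL and 24.5, 20.8 and 39.2 in ERRKO_CL (-5.52 ± 0.45). Kng2 (chromosome 16, 22985854 to 23029482, minus strand), a kininogen whose product is the precursor of bradykinin, was at 18.8, 20.8 and 22.3 in WT_CL and 0.0781, 0.227 and 0.0205 in ERRKO_CL (-5.13 ± 0.17). In these genes the highest ERRKO_CL library stood far below the lowest WT_CL library. Kng2 has a close paralog, Kng1, and its value is uncertain to that extent.

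Lipid handling supplied further large losses. Acot11, a brown fat acyl-CoA thioesterase that shares 20.9% of its exon bases with Fam151a, was at 27.7, 72.5 and 34.4 in WT_CL and 0.756, 1.07 and 0.884 in ERRKO_CL (-4.90 ± 0.32). Fabp3, the heart-type fatty acid binding protein, was at 450.3, 504 and 384 in WT_CL and 10.5, 27.3 and 27.4 in ERRKO_CL (-4.44 ± 0.63, adjusted p = 1.4e-04). Tfrc, the transferrin receptor that brings iron into cells, was at 338, 112 and 311 in WT_CL and 9.78, 10.1 and 16.5 in ERRKO_CL (-4.21 ± 0.44, adjusted p = 1.2e-05), with WT_CL replicate 2 well under the other WT_CL libraries and still far above every ERRKO_CL library. The mitochondrial proteins Chchd10 (-3.94 ± 0.17) and Cycs, cytochrome c (-3.90 ± 0.15), were lower as well, with Cycs at 512, 512 and 497 in WT_CL and 31.3, 31.3 and 38.1 in ERRKO_CL. Aspg, an asparaginase, was at 34.4, 59.5 and 31.2 in WT_CL and 1.26, 2.90 and 1.44 in ERRKO_CL (-4.16 ± 0.26, adjusted p = 1.5e-07). Tstd3, a rhodanese-domain gene that shares 21.0% of its exon bases with its neighbours, was lower at -4.07 ± 0.11, adjusted p = 6.2e-10, as was the uncharacterised A530050N04Rik at -4.50 ± 0.34, adjusted p = 7.7e-07.

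The 12 gains included genes known from white fat and from serine synthesis. Genes with a wide spread that were not called, such as the muscle gene Acta1 (given below), are outside this ranking. Nnat (chromosome 2, 157560078 to 157562522, plus strand), which encodes the small membrane protein neuronatin, was at 8.69, 9.83 and 6.75 in WT_CL and 546, 540.0 and 630.5 in ERRKO_CL (6.02 ± 0.17, adjusted p = 6.2e-10), which was the only gain of 16-fold or more. Phgdh (chromosome 3, 98313170 to 98339990, minus strand), the first enzyme of serine synthesis, was at 10.9, 5.64 and 9.23 in WT_CL and 124, 124 and 139 in ERRKO_CL (3.88 ± 0.22, adjusted p = 6.5e-08). Psat1, the next enzyme of that pathway, was at 2.90, 3.27 and 2.84 in WT_CL and 36.3, 39.4 and 55.2 in ERRKO_CL (3.63 ± 0.28, adjusted p = 7.9e-07). Each of these 3 genes thus rose from 10.9 RPKM or less to 36.3 or more. Retn, which encodes the adipokine resistin, was at 20.9, 23.1 and 16.2 in WT_CL and 278, 260.0 and 259 in ERRKO_CL (3.71 ± 0.33, adjusted p = 2.6e-06). Sncg, a synuclein abundant in white adipocytes, was at 17.0, 13.97 and 19.9 in WT_CL and 193, 276 and 267 in ERRKO_CL (3.81 ± 0.29, adjusted p = 8.3e-07). The gains also included Chst1, a carbohydrate sulfotransferase (3.70 ± 0.19), Adcy5, an adenylyl cyclase (3.67 ± 0.36), Apcdd1, a Wnt inhibitor (3.55 ± 0.14), Cfb, complement factor B (3.46 ± 0.34), and Gadd45b, a stress-inducible growth arrest gene (3.62 ± 0.29). Fam83a (3.87 ± 0.42) and Rprml (3.44 ± 0.41) rose from around or under 1 RPKM, where the added 0.5 makes the log2 value an understatement. The plot of single libraries shows 16 of the genes described here.

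**Figure D2:**
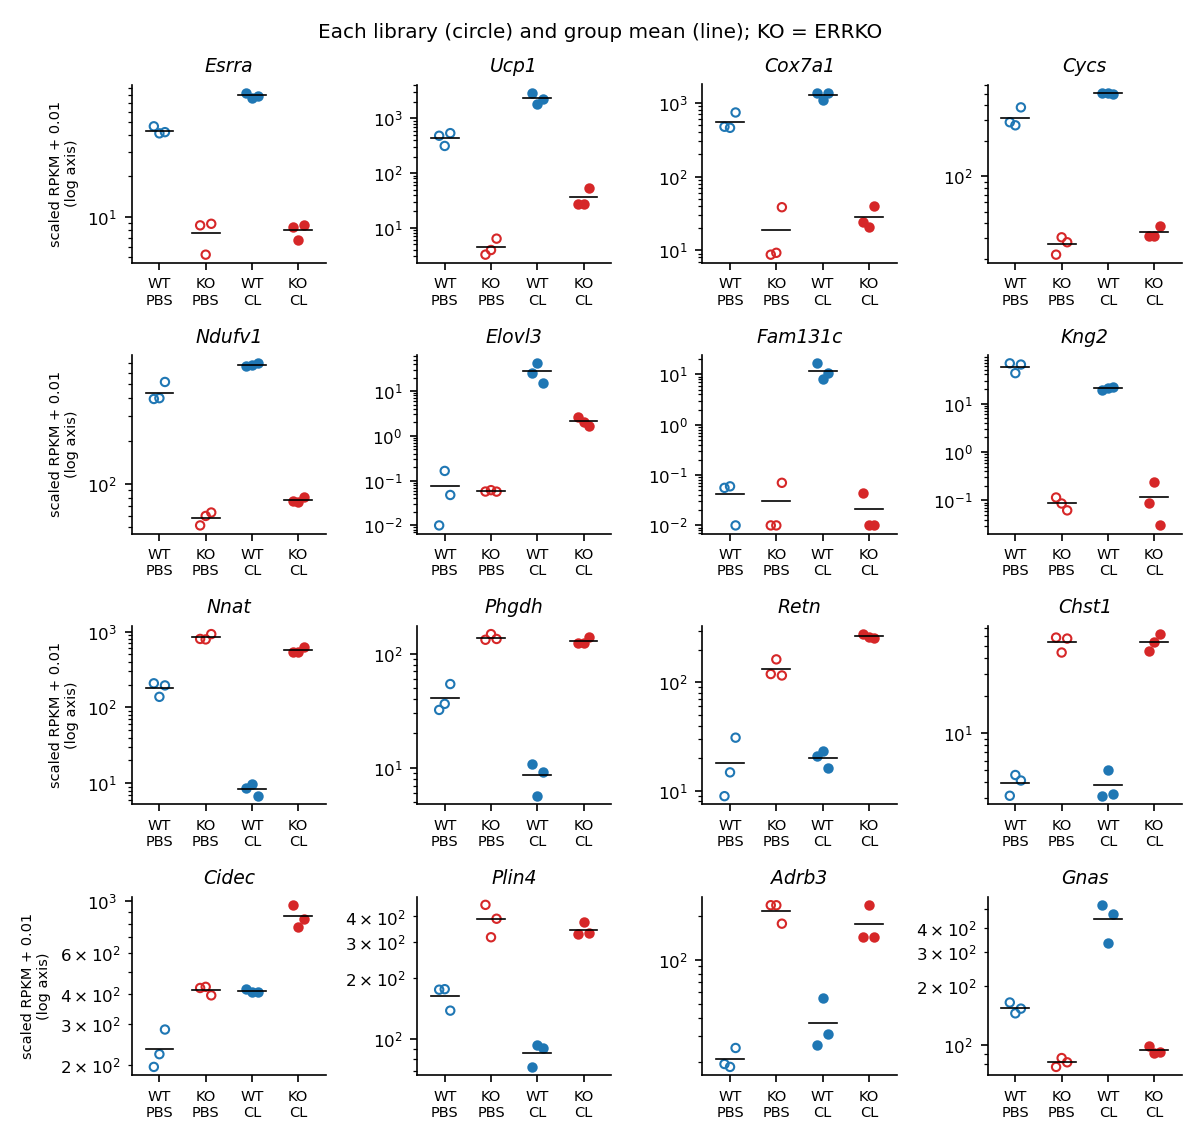
Scaled RPKM plus 0.01 (log axis) of 16 genes in each of the 12 libraries, with open circles for PBS, filled circles for CL316,243, blue for WT, red for ERRKO and a line at each group mean. The filled circles of the genotypes lie apart, which was a condition of choosing the largest gains and losses and held in 54.66% of all tested genes, and Fam131c and Elovl3 are near 0 in both PBS groups.

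The brown fat programme was lower in most of its members. Of 24 thermogenic and brown adipocyte genes 19 were lower and 1 higher (median -1.96, or -1.26 on the deposited scale; -1.98 with PBS). Letmd1, a mitochondrial protein needed for brown fat thermogenesis, was at 262, 240.0 and 246 in WT_CL and 27.7, 26.9 and 24.9 in ERRKO_CL (-3.21 ± 0.08, adjusted p = 4.4e-10), the smallest p of the list. Cidea, a lipid droplet protein of brown adipocytes, was at 1757, 1632 and 1643 in WT_CL and 425, 315 and 349 in ERRKO_CL (-2.22 ± 0.23, adjusted p = 1.2e-05), so that over 300 RPKM remained in every ERRKO_CL library. Dio2, the deiodinase that activates thyroid hormone, was at 12.7, 6.46 and 9.07 in WT_CL and 3.28, 1.43 and 3.74 in ERRKO_CL (-1.61 ± 0.36, adjusted p = 0.0035). Sirt3, a mitochondrial deacetylase, was lower by more (-2.44 ± 0.10), as was Pm20d1, an enzyme that makes N-acyl amino acids (-2.96 ± 0.17). The exception was Adrb3, the receptor of the agonist. By contrast the 14 tested transcription factors of the brown lineage list showed 5 higher, 1 lower and 8 not called (median 0.21, or 0.88 on the deposited scale). The lower gene, Ebf2, was at -0.70 ± 0.15, or -0.01 on the deposited scale, and Ebf1 (0.86 ± 0.13) and Tbx15 (0.91 ± 0.16) were higher. Of 20 PPAR, RXR and C/EBP family genes and relatives 4 were higher and 4 lower (median 0.06, or 0.76 on the deposited scale). These counts were near the shares among all genes, 19.9% higher and 21.6% lower. The PPAR partner Rxra was at 1.2 ± 0.09 and Klf15, a factor of adipose and muscle metabolism, at 1.0 ± 0.14.

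Nuclear genes of the respiratory chain were lower almost without exception. All 36 tested complex I subunit genes (median -2.26, or -1.54 on the deposited scale) and all 14 of complexes II and III with cytochrome c (median -2.73, or -2.01 on the deposited scale) were called lower, with 14 of 16 of complex IV (median -2.34, or -1.62 on the deposited scale) and 17 of 19 of ATP synthase (median -2.19, or -1.48 on the deposited scale), against 21.6% of all genes. Together these 85 genes made up 16.4% ± 0.480 in WT_CL and 4.00% ± 0.172 in ERRKO_CL of each library's summed RPKM, a share that no scaling of a library changes. Ndufv1, which holds the NADH site of complex I, was at 667, 676 and 698 in WT_CL and 76.4, 75.3 and 81.2 in ERRKO_CL (-3.12 ± 0.12, adjusted p = 5.4e-09). Cyc1 and Uqcrc1 of complex III were at -3.14 ± 0.12 and -3.05 ± 0.12, Cox5a and Cox7b of complex IV at -3.13 ± 0.16 and -3.15 ± 0.16, and Atp5o and Atp5b of ATP synthase at -2.99 ± 0.16 and -2.63 ± 0.14. Each of these subunits thus lost 6-fold or more. With PBS the share of the 85 genes was 12.9% ± 1.2 in WT_PBS and 3.53% ± 0.309 in ERRKO_PBS. Subunits encoded by mitochondrial DNA were not analysed here.

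Genes whose products build the chain were also mostly lower, with smaller median differences. Of 48 assembly factors 42 were lower and 0 higher (median -1.08, or -0.42 on the deposited scale). Uqcc1, an assembly factor of complex III, was at 73.1, 73.1 and 68.9 in WT_CL and 15.7, 15.4 and 15.3 in ERRKO_CL (-2.17 ± 0.08, adjusted p = 4.1e-09), and Foxred1 of complex I was at 74.3, 76.0 and 77.3 in WT_CL and 16.6, 17.7 and 17.7 in ERRKO_CL (-2.10 ± 0.08, adjusted p = 4.1e-09). Cox11, which inserts copper into complex IV and shares 48.3% of its exon bases with another gene, was at -2.00 ± 0.09. All 13 genes of coenzyme Q synthesis were lower (median -1.16, or -0.47 on the deposited scale), with the hydroxylases Coq6 and Coq7 at -2.40 ± 0.07 and -2.89 ± 0.13. Iron-sulfur cluster assembly had 16 of 21 lower and 0 higher (median -0.75, or -0.10 on the deposited scale), with Bola3, a late-acting factor, at -2.40 ± 0.14. In haem synthesis and breakdown 8 of 16 were lower, and the median turned from -0.40 to 0.30 on the deposited scale. Its largest losses were Tmem14c, a porphyrinogen transporter (-2.08 ± 0.16), and Blvra, biliverdin reductase (-1.66 ± 0.13).

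Genes for mitochondrial gene expression and protein import were mostly lower, and 37 of 75 genes of the cytosolic ribosome were higher. Genes listed as mitochondrial ribosomal proteins were called lower in 72 of 77 cases and higher in none (median -1.01, or -0.33 on the deposited scale). Mrpl34 was at -2.66 ± 0.13. The lowest value of the list was that of Mrps36, whose part in the ribosome was not examined here. It was at 251, 225 and 239 in WT_CL and 23.7, 23.2 and 27.8 in ERRKO_CL (-3.24 ± 0.13, adjusted p = 7.2e-09). Cytosolic ribosomal protein genes were called higher in 37 of 75 cases and lower in none (median 0.39, or 1.09 on the deposited scale), and their share of summed RPKM was 4.50% ± 0.230 in WT_CL and 7.28% ± 0.622 in ERRKO_CL. Without replicate 3 of both ERRKO groups, 20 were called higher, with a median of 0.41, and after quantile normalisation 72, with a median of 0.89. Many of these genes have processed pseudogene copies, so that their values are uncertain. Mitochondrial tRNA synthetases were lower in 14 of 17 cases (median -0.77, or -0.08 on the deposited scale), whereas cytosolic ones were split, with 6 lower and 3 higher of 20 (median -0.05, or 0.65 on the deposited scale). Among all genes 21.6% were lower and 19.9% higher. Gars, which serves both compartments, was the cytosolic-list member of largest loss (-1.03 ± 0.08). Protein import had 27 of 36 lower and 2 higher (median -1.06, or -0.35 on the deposited scale), with Timm8a1, a chaperone of the intermembrane space (-2.58 ± 0.14), and Samm50 of the outer membrane sorting complex (-2.04 ± 0.10) as examples. Chaperones and proteases were lower in 16 of 17 cases (median -0.78, or -0.07 on the deposited scale), and Afg3l2, the catalytic subunit of the m-AAA protease, was at 110.3, 116 and 118 in WT_CL and 19.3, 19.0 and 19.3 in ERRKO_CL (-2.55 ± 0.08, adjusted p = 8.4e-10). Genes for mitochondrial DNA transcription and replication were lower in 14 of 22 cases, with a median of -0.60 that became 0.08 on the deposited scale. Tfb2m, a mitochondrial transcription factor, was at -1.98 ± 0.08, and Tfam, which packages mitochondrial DNA, at -1.22 ± 0.10. Of 23 fusion, fission and cristae genes 17 were lower (median -0.63, or 0.08 on the deposited scale), led by Apoo (-3.50 ± 0.15), a cristae junction protein, and Mtfp1 (-2.72 ± 0.13), a fission factor.

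**Figure D3:**
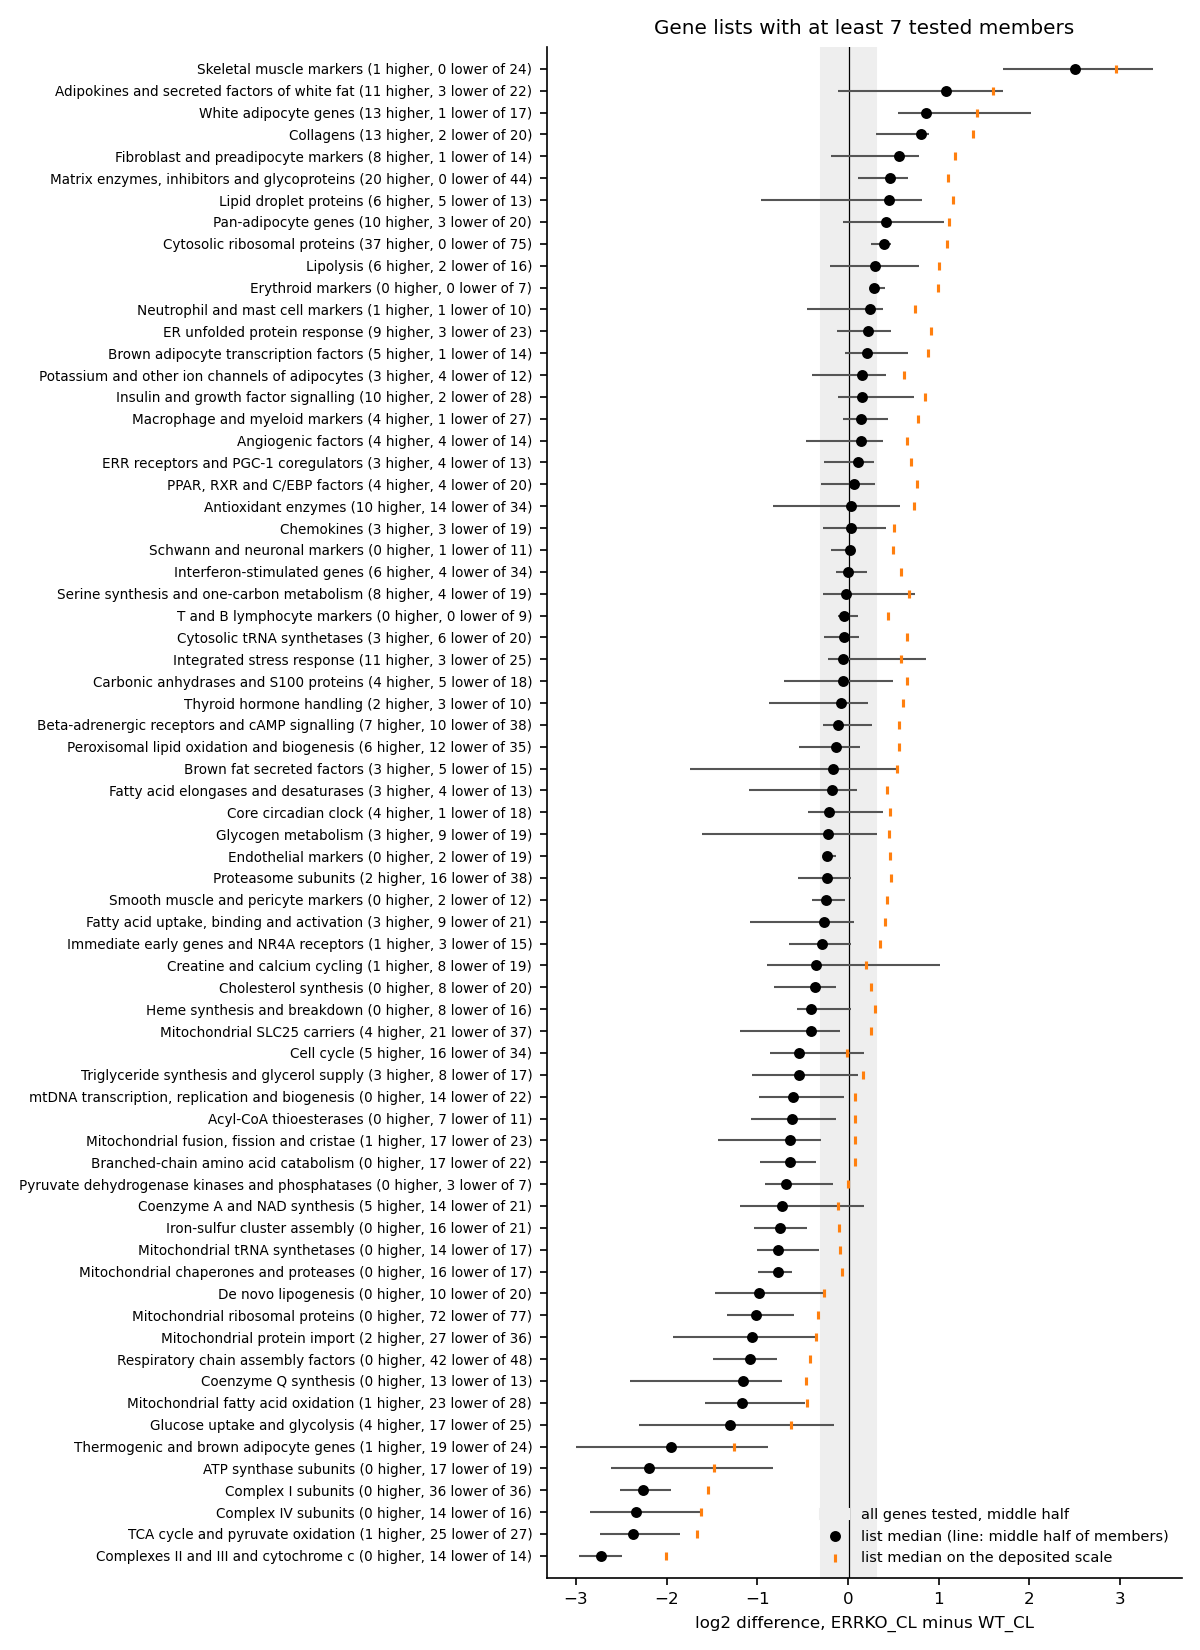
Median log2 difference (black point) of each gene list with at least 7 tested members, with a line from the lower to the upper quartile of its members, the median on the deposited scale as an orange tick and the quartile range of all tested genes in grey. Respiratory chain and TCA lists lie near -2 to -3 on the main scale, and the skeletal muscle list lies highest with 1 of 24 members called.

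Genes of fuel oxidation were mostly lower. Of 27 genes of pyruvate oxidation and the TCA cycle 25 were lower and 1, the anaplerotic enzyme Pcx, was higher (median -2.38, or -1.66 on the deposited scale). Idh3b, a subunit of NAD-dependent isocitrate dehydrogenase, was at 1108, 1087 and 1117 in WT_CL and 103, 103 and 111 in ERRKO_CL (-3.38 ± 0.11, adjusted p = 1.6e-09), and Ogdh (-3.09 ± 0.09) and Dlst (-3.01 ± 0.10) of the 2-oxoglutarate dehydrogenase complex were lower by somewhat less. Mitochondrial fatty acid oxidation had 23 of 28 lower and 1 higher (median -1.17, or -0.45 on the deposited scale), so that its median loss was smaller than in the TCA list. Its share of summed RPKM was 4.79% ± 0.0635 in WT_CL and 2.25% ± 0.0905 in ERRKO_CL, while the TCA list had 4.78% ± 0.125 in WT_CL and 1.25% ± 0.0595 in ERRKO_CL. Cpt1b, the muscle form of the enzyme that admits long-chain fatty acids to mitochondria, was at 291, 259.9 and 286 in WT_CL and 31.6, 44.5 and 35.4 in ERRKO_CL (-2.90 ± 0.14, adjusted p = 2.5e-08), and 81.4% of its exon bases overlap another annotated gene. Hadha, of the trifunctional protein, was at -2.29 ± 0.15.

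Other oxidative lists were mixed or shallow. Of 35 peroxisomal genes 12 were lower and 6 higher (median -0.14, or 0.57 on the deposited scale), with Phyh, an α-oxidation enzyme, at -2.33 ± 0.13 and the transporter Abcd3 at -1.22 ± 0.11. Branched-chain amino acid breakdown had 17 of 22 lower and 0 higher, with a median of -0.64 that became 0.08 on the deposited scale. Its larger losses were Dld, shared with pyruvate oxidation (-2.39 ± 0.14), Mcee (-1.48 ± 0.14) and Acad8 (-1.47 ± 0.09). Among 37 mitochondrial carriers 21 were lower and 4 higher (median -0.40, or 0.25 on the deposited scale). The carnitine carrier Slc25a20 (-1.47 ± 0.09) and the oxoglutarate carrier Slc25a11 (-1.27 ± 0.11) were lower, and the dicarboxylate carrier Slc25a10 was higher (2.76 ± 0.27, adjusted p = 5.7e-06). Of 7 pyruvate dehydrogenase kinase and phosphatase genes 3 were lower, with Pdk2 at -1.05 ± 0.11 and Pdpr at -1.16 ± 0.18, and the list median was -0.68, or 0.00 on the deposited scale.

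Pairs of genes for isoforms, or for mitochondrial and cytosolic versions of one enzyme, were compared within each library, where library scaling nearly cancels. In 23 pairs the log2 ratio of the first to the second gene was lower in ERRKO_CL without overlap of the libraries in 11 and higher without overlap in 6. Among single genes 54.66% did not overlap, and the same share over other pairs was not computed. For Cox7a1 over its ubiquitous form Cox7a2 the ratio was 1.15 to 1.57 in WT_CL and -2.34 to -1.51 in ERRKO_CL, which turned the order of the isoforms. Cidea over Cidec, droplet proteins typical of brown and of white fat, was 1.99 to 2.06 in WT_CL and -1.30 to -1.18 in ERRKO_CL, again a change of order. Plin5 over Plin1, droplet coats of oxidative cells and of all adipocytes, was -2.50 to -2.13 in WT_CL and -5.08 to -4.88 in ERRKO_CL, and Cpt1b over Cpt1a was 5.67 to 6.17 in WT_CL and 2.3 to 2.84 in ERRKO_CL. In these pairs the form of oxidative cells lost against its partner. The opposite held for Cox8b, the heart and brown fat form of another cytochrome oxidase subunit, over the ubiquitous Cox8a (0.88 to 1.07 in WT_CL and 1.60 to 1.72 in ERRKO_CL), and for Hk2 over Hk1, hexokinases of insulin-responsive tissue and of most tissues (1.97 to 2.34 in WT_CL and 2.52 to 2.60 in ERRKO_CL). Both genes of each of these pairs were lower, Cox8b at -1.64 ± 0.27 and Cox8a at -2.34 ± 0.15, and Hk2 at -0.93 ± 0.15 (not called on the deposited scale) and Hk1 at -1.30 ± 0.14. Cox4i2 over Cox4i1, a minor and the main form of subunit 4, also had a higher ratio (-8.81 to -8.51 in WT_CL and -7.27 to -6.78 in ERRKO_CL). Fabp3 over Fabp4 was -5.17 to -4.88 in WT_CL and -10.42 to -9.07 in ERRKO_CL, and Fabp4, the adipocyte binding protein, was not called (0.06 ± 0.29). The mitochondrial enzyme also lost against its cytosolic counterpart for Sod2 over Sod1 (-1.56 to -1.38 in WT_CL and -4.15 to -3.87 in ERRKO_CL) and Txn2 over Txn1 (0.64 to 0.94 in WT_CL and -1.30 to -1.22 in ERRKO_CL). The opposite was seen for Shmt2 over Shmt1, where the cytosolic form fell (-1.69 to -1.25 in WT_CL and 0.73 to 1.16 in ERRKO_CL), and for Got2 over Got1 (0.20 to 0.34 in WT_CL and 0.87 to 1.04 in ERRKO_CL). Cox6a2 over Cox6a1 (-11.66 to -8.37 in WT_CL and -7.05 to -4.49 in ERRKO_CL) and Ckmt2 over Ckb (-5.6 to -2.59 in WT_CL and -2.77 to 0.12 in ERRKO_CL) had higher ratios in ERRKO_CL with wide ranges, which overlapped for the latter pair. Cox6a2 and Ckmt2 are muscle genes whose own differences were not called (2.33 ± 1.15 and 2.14 ± 1.12), and the skeletal muscle markers differed among libraries as given above. Their part in these ratios was not tested.

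**Figure D4:**
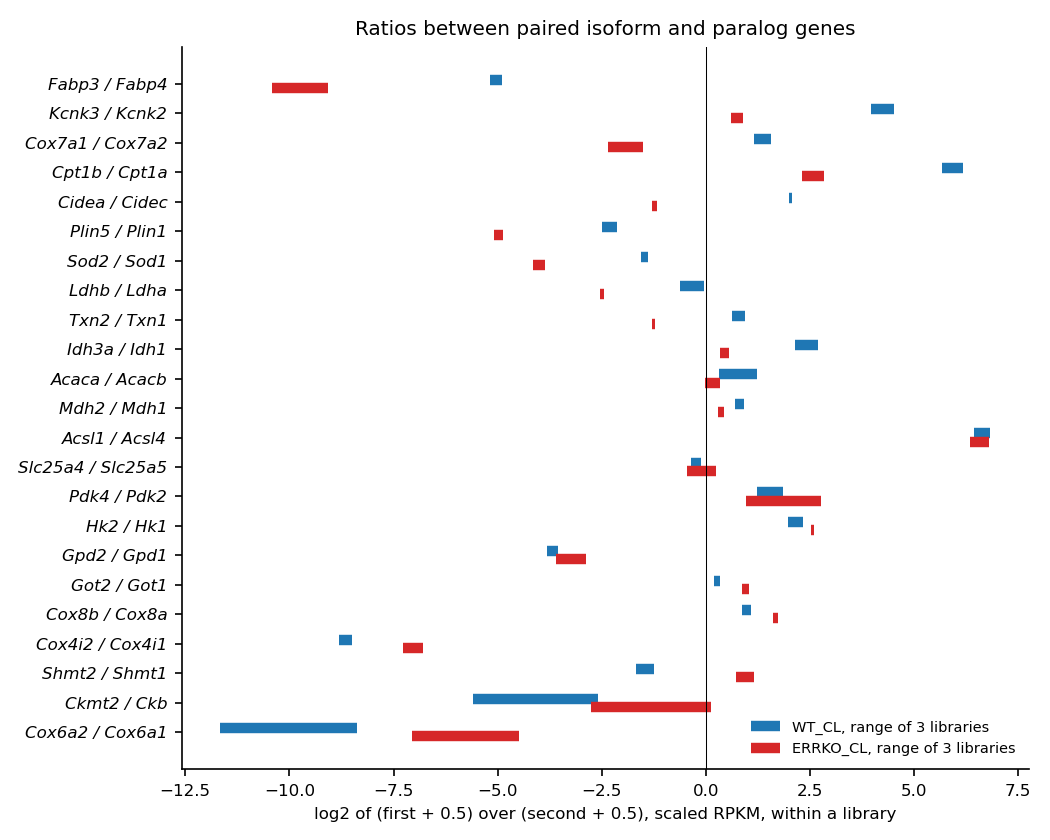
Log2 ratio within a library of the first named gene plus 0.5 to the second plus 0.5 (scaled RPKM), shown as the range over 3 WT_CL libraries (blue) and 3 ERRKO_CL libraries (red) for 23 pairs. Ranges do not overlap in 11 pairs with a lower ratio in ERRKO_CL, such as Fabp3 over Fabp4, and in 6 pairs with a higher one, such as Shmt2 over Shmt1.

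Genes of glucose uptake and glycolysis were mostly lower, and those of glycogen were split. Of 25 glucose uptake and glycolysis genes 17 were lower and 4 higher (median -1.30, or -0.63 on the deposited scale; -0.74 with PBS). The interaction of genotype and agonist was called in 5 of the 25, all more negative with agonist. Ldhb, the lactate dehydrogenase of oxidative tissue, was at 507, 458 and 495 in WT_CL and 37.0, 33.4 and 48.9 in ERRKO_CL (-3.61 ± 0.16, adjusted p = 1.1e-08), and Pgk1 (-3.10 ± 0.13) and Pgam1 (-2.68 ± 0.11) of lower glycolysis were each lower by over 4-fold. Eno3, the muscle enolase, was higher (1.93 ± 0.69, adjusted p = 0.042) and stands among the muscle markers, whose sums are given above. Its call was lost on leaving out WT_PBS replicate 2, WT_CL replicate 1 or 2, or ERRKO_CL replicate 2 or 3, with adjusted p (limma) of 0.053 to 0.144. In glycogen metabolism 9 of 19 were lower and 3 higher (median -0.22, or 0.46 on the deposited scale). The glycogen-targeting phosphatase subunits Ppp1r3c (-2.25 ± 0.21) and Ppp1r3b (-1.94 ± 0.24) were lower, and the brain-type phosphorylase Pygb was higher (1.26 ± 0.14).

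Lipid synthesis lists held both called losses and members that did not pass, and WT_CL libraries spread widely. Of 20 de novo lipogenesis genes 10 were lower and 0 higher (median -0.98, or -0.26 on the deposited scale; -0.25 with PBS). The interaction of genotype and agonist was called in 2 of the 20, both more negative with agonist. Acly, which makes cytosolic acetyl-CoA, was at 167, 648 and 299 in WT_CL and 45.6, 29.5 and 62.3 in ERRKO_CL (-2.85 ± 0.46, adjusted p = 3.7e-04), and Fasn, fatty acid synthase, was at 353, 1321 and 726 in WT_CL and 239, 257 and 442 in ERRKO_CL (-1.21 ± 0.50, adjusted p = 0.07), not called. It was called without WT_CL replicate 1 (fell by 1.71 on the log2 scale, adjusted p = 0.017) and by edgeR on recovered reads (-1.36, adjusted p = 0.043). WT_CL replicate 2 was the highest library for both, by about 2-fold. Elovl6, which extends palmitate, was at 77.4, 160.2 and 85.0 in WT_CL and 7.85, 9.16 and 14.9 in ERRKO_CL (-3.25 ± 0.34, adjusted p = 1.2e-05), and Elovl3, the brown fat elongase of very long chains, was at 25.6, 41.5 and 15.4 in WT_CL and 2.57, 2.03 and 1.65 in ERRKO_CL (-3.34 ± 0.27, adjusted p = 1.5e-06). Acsl5, an acyl-CoA synthetase, was at 94.4, 169.6 and 89.6 in WT_CL and 13.9, 16.5 and 15.3 in ERRKO_CL (-2.85 ± 0.19, adjusted p = 2.3e-07). For all 3 the groups were apart, as for 54.66% of all tested genes. The glycerol phosphate enzyme genes Gpd1, Gpd2 and Gk were lower too. Gpd1 was at 2178, 2752 and 2528 in WT_CL and 531, 379 and 507 in ERRKO_CL (-2.40 ± 0.16, adjusted p = 2.3e-07). Its mitochondrial counterpart Gpd2 was at -1.90 ± 0.16. Glycerol kinase, Gk, was at 55.6, 26.2 and 36.3 in WT_CL and 4.46, 3.71 and 5.39 in ERRKO_CL (-2.93 ± 0.23, adjusted p = 8.9e-07). In the whole triglyceride list 8 of 17 were lower and 3 higher (median -0.54, or 0.17 on the deposited scale), and the acyltransferase Agpat3 was at -1.06 ± 0.13. Of 11 acyl-CoA thioesterases 7 were lower and 0 higher (median -0.62, or 0.07 on the deposited scale), with the mitochondrial Acot13 at -1.91 ± 0.12. Cholesterol synthesis had 8 of 20 lower and 0 higher (median -0.36, or 0.25 on the deposited scale), with Hmgcs1 at -1.16 ± 0.17 and Nsdhl at -1.11 ± 0.13.

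Lipid droplet and lipolysis genes went in both directions. Of 13 droplet genes 6 were higher and 5 lower (median 0.45, or 1.16 on the deposited scale). For this and the next lists, the shares among all genes were 19.9% higher and 21.6% lower. Plin4, a droplet coat of white adipocytes, was at 73.2, 93.5 and 90.6 in WT_CL and 327, 374 and 332 in ERRKO_CL (2.00 ± 0.15, adjusted p = 8.0e-07), and Cidec, which fuses droplets, was at 421, 411 and 408 in WT_CL and 961, 775 and 841 in ERRKO_CL (1.05 ± 0.14, adjusted p = 8.0e-05). Plin5, which links droplets to mitochondria, was at 86.9, 82.9 and 84.5 in WT_CL and 18.6, 24.9 and 20.5 in ERRKO_CL (-1.97 ± 0.14, adjusted p = 5.4e-07). None of the 3 overlapped between groups, as held for 54.66% of all tested genes. Cideb, with 76.3% of its exon bases shared with another gene, was also lower (-2.93 ± 0.19). Of 16 lipolysis genes 6 were higher and 2 lower (median 0.30, or 1.0 on the deposited scale). The higher ones included Hcar2, a hydroxybutyrate receptor that restrains lipolysis (2.63 ± 0.41), Ces1f, a carboxylesterase with close paralogs (1.99 ± 0.26), and Pde3b, the insulin-responsive phosphodiesterase (0.84 ± 0.09). The lower ones were Lipa, the lysosomal acid lipase (-1.26 ± 0.15), and Abhd6, a monoacylglycerol lipase (-1.15 ± 0.11). For uptake and activation 9 of 21 were lower and 3 higher (median -0.27, or 0.41 on the deposited scale). Slc27a1, the main transporter of this family in adipocytes, was higher (1.95 ± 0.17), together with Lpl (0.87 ± 0.15), the lipase of the capillary wall. The synthetase gene Acsf3, which serves malonyl-CoA formation, was lower (-1.39 ± 0.13).

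Phgdh and Psat1 of serine synthesis rose within a mixed group. Of 19 serine and one-carbon genes 8 were higher and 4 lower (median -0.02, or 0.68 on the deposited scale). For this and the next lists, the shares among all genes were 19.9% higher and 21.6% lower, and the share lower here was near the latter. Beside Phgdh and Psat1 the gains included Cbs (2.28 ± 0.18, adjusted p = 1.0e-06), which starts the conversion of homocysteine to cysteine, while the cytosolic Shmt1 was lower (-2.44 ± 0.14). Of 25 integrated stress response genes, whose products answer amino acid shortage and mitochondrial stress, 11 were higher and 3 lower (median -0.05, or 0.58 on the deposited scale). Phgdh and Psat1 are on this list as well and are among the 11, so that the lists are not independent. Gpt2, a mitochondrial alanine aminotransferase, was at 5.67, 6.13 and 6.23 in WT_CL and 39.2, 44.2 and 49.8 in ERRKO_CL (2.78 ± 0.17, adjusted p = 1.4e-07), and Eif4ebp1, a translation repressor, was at 0.94 ± 0.14. Fgf21 and Gdf15, its secreted factors, lay below the filter. In the antioxidant list 14 of 34 were lower and 10 higher (median 0.03, or 0.73 on the deposited scale). The mitochondrial Sod2 (-2.43 ± 0.12), Prdx5 (-1.84 ± 0.14) and Txn2 (-1.70 ± 0.10) were lower, and the cytosolic Gstm1 was higher (1.33 ± 0.09). Coenzyme A and NAD synthesis had 14 of 21 lower and 5 higher (median -0.72, or -0.11 on the deposited scale). Here Pank1, pantothenate kinase 1, was lower (-2.38 ± 0.14, adjusted p = 1.0e-07), and Nampt, the salvage enzyme of NAD synthesis, was lower (-1.52 ± 0.13, adjusted p = 2.5e-06).

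In the β-adrenergic pathway 1 receptor gene, 1 G protein gene and 1 cyclase gene are described, each with a called difference. Adrb3 was at 26.1, 54.8 and 30.9 in WT_CL and 144, 237 and 143 in ERRKO_CL (2.25 ± 0.27, adjusted p = 3.1e-05), with no overlap between groups, and 24.9% of its exon bases are shared with another annotated gene. Gnas, which encodes the stimulatory G protein subunit, was at 523, 332 and 471 in WT_CL and 98.8, 91.0 and 91.5 in ERRKO_CL (-2.20 ± 0.14, adjusted p = 2.0e-07), and shares 22.0% of its exon bases. Adcy5 was at 1.38, 2.02 and 0.982 in WT_CL and 19.7, 25.6 and 27.2 in ERRKO_CL (3.67 ± 0.36, adjusted p = 6.2e-06). Adrb3 and Adcy5 were therefore higher while Gnas was lower. Adcy5 had the highest value of its list, and other receptor and cyclase genes are not described here. Pde4a, which breaks down cAMP, was lower (-1.95 ± 0.20). Over the whole list of 38 genes 10 were lower and 7 higher (median -0.11, or 0.56 on the deposited scale), near the shares among all genes. Of the channel genes Kcnk2, a two-pore potassium channel, was at 3.90, 2.84 and 2.64 in WT_CL and 21.5, 21.9 and 27.0 in ERRKO_CL (2.73 ± 0.15, adjusted p = 6.0e-08), and Kcnk3, the brown fat channel of that family, was lower (-0.78 ± 0.15, adjusted p = 0.0013), a call that was lost on the deposited scale (-0.07). Kcnj11, an ATP-sensitive channel subunit, was lower (-2.05 ± 0.36). In creatine and calcium cycling 8 of 19 were lower and 1 higher (median -0.35, or 0.20 on the deposited scale). Ckb, creatine kinase B, was at -1.15 ± 0.16 and the creatine synthesis enzyme Gamt at 3.96, 4.40 and 4.64 in WT_CL and 33.2, 24.7 and 30.2 in ERRKO_CL (2.62 ± 0.22, adjusted p = 1.6e-06). Carbonic anhydrases differed in opposite directions, Car14 at -3.83 ± 0.27, adjusted p = 3.7e-07 and Car2 at -2.45 ± 0.12 against the mitochondrial Car5b at 2.82 ± 0.30, adjusted p = 1.3e-05. S100b, which brown adipocytes secrete and nerve sheath cells also make, was lower (-3.89 ± 0.32, adjusted p = 1.3e-06).

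Genes of white adipocytes were higher in most cases. Of 17 on the white adipocyte list 13 were higher and 1, the imprinted gene Mest, lower (-1.21 ± 0.27, or -0.58 and not called on the deposited scale; median 0.86, or 1.42 on the deposited scale), against 19.9% of all genes higher. Lep, which encodes leptin, was at 22.2, 18.2 and 22.8 in WT_CL and 95.5, 61.1 and 63.5 in ERRKO_CL (1.75 ± 0.18, adjusted p = 1.0e-05). Of 22 adipokines and secreted factors 11 were higher and 3 lower (median 1.08, or 1.60 on the deposited scale). Cfd, which encodes adipsin, was at 1006, 935 and 688 in WT_CL and 6260.2, 5949 and 5341 in ERRKO_CL (2.75 ± 0.33, adjusted p = 3.8e-05). Adipoq, adiponectin, whose promoter drives the Cre (1.2 ± 0.21, adjusted p = 7.2e-04), Rarres2, chemerin, with 33.6% of its exon bases shared (2.67 ± 0.26), and Pltp, a phospholipid transfer protein (1.42 ± 0.12), were higher. Lower were Nampt, Apln (-1.69 ± 0.27) and Angptl8 (-1.95 ± 0.41). Of 20 pan-adipocyte genes 10 were higher and 3 lower (median 0.42, or 1.11 on the deposited scale). In the insulin and growth factor list 10 of 28 were higher and 2 lower (median 0.15, or 0.85 on the deposited scale), with Igfbp4 at 19.97, 21.7 and 21.7 in WT_CL and 144, 125 and 160.4 in ERRKO_CL (2.73 ± 0.14, adjusted p = 3.0e-08).

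Matrix lists held gains of smaller size. Of 20 collagen genes 13 were higher and 2 lower (median 0.80, or 1.38 on the deposited scale; 0.23 with PBS). The interaction of genotype and agonist was called in 0 of the 20. Col5a3 was at 10.2, 8.28 and 9.50 in WT_CL and 40.2, 46.3 and 62.0 in ERRKO_CL (2.33 ± 0.19, adjusted p = 1.7e-06), while the microfibrillar Col6a2 (1.0 ± 0.16) gained 2-fold and Col18a1 of vessel basement membranes less (0.82 ± 0.12). Col4a5, a basement membrane chain, was lower (-1.64 ± 0.16). Basement membrane genes Lamb1 (1.25 ± 0.15), Lama4 (1.10 ± 0.16) and Nid1 (1.08 ± 0.10) were among 20 of 44 matrix glycoprotein and enzyme genes that were higher, with none lower (median 0.46, or 1.10 on the deposited scale). Of 14 fibroblast markers 8 were higher and 1 lower (median 0.56, or 1.19 on the deposited scale), or 5 and 0 without replicate 3 of both ERRKO groups. The list summed to 458 to 491 in WT_CL and 1435 to 1851 in ERRKO_CL. Gsn (2.21 ± 0.18) and Dpt (2.45 ± 0.22) carried that sum, which without them was 139 to 154 in WT_CL and 129 to 182 in ERRKO_CL and overlapped. The part of cell composition in the matrix differences was not tested.

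Few markers of other cells were called. Of 19 endothelial markers 2 were lower and none higher (median -0.23, or 0.46 on the deposited scale), with a summed level of 373 to 446 in WT_CL and 315 to 379 in ERRKO_CL. Of 27 macrophage and myeloid markers 4 were higher and 1 lower (median 0.15, or 0.77 on the deposited scale). Their sum without Lpl, which adipocytes make, was 214 to 287 in WT_CL and 244 to 312 in ERRKO_CL. The sums of 9 tested lymphocyte markers were low and overlapped (6.89 to 13.8 in WT_CL and 7.37 to 10.2 in ERRKO_CL). Of 24 skeletal muscle markers only Eno3 was called, while the list median was 2.51, and 1.87 without replicate 3 of both ERRKO groups. Acta1, skeletal actin, was at 10.6, 0.372 and 58.4 in WT_CL and 44.7, 138 and 276 in ERRKO_CL (3.86 ± 1.68, adjusted p = 0.087), with wide spread in both groups and a call only on leaving out WT_CL replicate 3, in a fit with replicate blocks and on the deposited scale (adjusted p = 0.035, 0.043 and 0.026). Smooth muscle and pericyte markers were lower in 2 of 12 cases (median -0.25, or 0.43 on the deposited scale). Kit, a mast cell and progenitor marker, was lower (-1.09 ± 0.15), and S100a8, a neutrophil gene, was higher (2.49, 2.33 and 5.80 in WT_CL and 19.7, 17.8 and 18.6 in ERRKO_CL, 2.35 ± 0.33, adjusted p = 1.1e-04), while the neutrophil and mast cell list without S100a8 and S100a9 summed to 17.5 to 21.1 in WT_CL and 15.7 to 29.5 in ERRKO_CL.

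Proliferation and housekeeping lists had smaller medians. Of 34 cell cycle genes 16 were lower and 5 higher, with a median of -0.54 that was -0.01 on the deposited scale. Mki67, a marker of dividing cells, was at 2.33, 1.48 and 1.18 in WT_CL and 0.284, 0.461 and 0.528 in ERRKO_CL (-1.2 ± 0.22, adjusted p = 9.0e-04), and Rrm1, of deoxynucleotide synthesis, was at 7.58, 6.28 and 7.57 in WT_CL and 2.29, 3.00 and 2.95 in ERRKO_CL (-1.24 ± 0.11, adjusted p = 2.8e-06). Cyclin D2, Ccnd2, was higher (0.99 ± 0.10). The proteasome list had 16 of 38 lower and 2 higher, with a median of -0.23 that was 0.48 on the deposited scale and 0.04 after quantile normalisation. Of 18 clock genes 4 were higher and 1 lower (median -0.21, or 0.46 on the deposited scale), with Nr1d1, a repressor of the clock loop, at 0.96 ± 0.16, adjusted p = 4.6e-04. Interferon-stimulated genes were higher in 6 of 34 cases and lower in 4 (median 0.00, or 0.59 on the deposited scale), against 19.9% and 21.6% of all genes. With PBS 17 were higher and 0 lower in ERRKO, and the interaction was called in 2 of the 34. Isg20 (1.42 ± 0.15) and Dtx3l (1.27 ± 0.12) were among the gains with agonist. In the unfolded protein response list 9 of 23 were higher and 3 lower (median 0.22, or 0.91 on the deposited scale), the former including the folding enzymes Pdia4 (1.01 ± 0.15) and P4hb (0.92 ± 0.11).

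The genotype difference with agonist was then set beside that with PBS, which uses other libraries. With PBS 4189 genes (34.2%) were called. The test of the difference between both contrasts, the interaction of genotype and agonist, called 474 genes (3.87%), 235 with a more positive and 239 with a more negative value under CL316,243. That count fell to between 220 and 300 on leaving out any 1 library of WT_CL or ERRKO_CL, WT_PBS replicate 2 or ERRKO_PBS replicate 1, and was 811 without WT_PBS replicate 3. The interaction was called in 1 of the 85 genes of the chain and ATP synthase (Atp5g3, 1 of 3 near-identical genes for the c subunit, -0.80 ± 0.19, adjusted p = 0.043) and in 3 of 27 of the TCA list, which were Pdhb (-1.24 ± 0.31, adjusted p = 0.048), Mpc2 (-1.13 ± 0.26, adjusted p = 0.039) and Dlst (-0.59 ± 0.14, adjusted p = 0.035). Pdhb belongs to pyruvate dehydrogenase and Mpc2 to the mitochondrial pyruvate carrier. These 4 calls were lost on leaving out any of 10 (Pdhb) or 11 (the others) of the 12 libraries. Other mitochondrial lists held more. Of 48 assembly factors 7 were more negative and 1, the copper chaperone Sco2 (0.77 ± 0.17, adjusted p = 0.032), was more positive, and of 17 mitochondrial tRNA synthetases 4 were more negative (Aars2, Iars2, Lars2 and Sars2). The calls of Sco2, Lars2 and Sars2 were each lost on leaving out any of 9 of the 12 libraries. In the thermogenic list 3 of 24 were more positive (Slc27a2, Pank1 and Cpt1b) and 3 more negative (Elovl3, Letmd1 and Gk). Medians under CL316,243 and PBS were -2.26 and -2.02 for complex I and -2.38 and -1.92 for the TCA list. The loss of Ucp1 was of like size with PBS (-6.49 ± 0.31), and its interaction did not pass (0.46 ± 0.43, adjusted p = 0.64).

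Some genes with a negative interaction were low in both PBS groups, where a loss could hardly be measured, so that the sign of the interaction largely followed from their level in WT_CL. Elovl3 was at 0, 0.155 and 0.0378 in WT_PBS and 0.0470, 0.0513 and 0.0468 in ERRKO_PBS, against 15.4 or more in WT_CL, and its interaction was -3.31 ± 0.39, adjusted p = 8.7e-04. Fam131c (-4.49 ± 0.29, adjusted p = 9.9e-06), Aspg (-3.59 ± 0.37, adjusted p = 5.4e-04), the myokine precursor gene Fndc5 (-3.46 ± 0.59, adjusted p = 0.0085), the calcium-binding Tesc (-3.26 ± 0.38, adjusted p = 8.7e-04) and Arhgef19, a guanine nucleotide exchange factor (-3.20 ± 0.26, adjusted p = 1.0e-04), had a similar form, with means under 1 RPKM in both PBS groups. Tesc and Aspg were above 0 there, with means of 0.966 and 0.671 in WT_PBS and 0.607 and 0.287 in ERRKO_PBS. Under CL316,243 Fndc5 was at 15.5, 4.68 and 9.63 in WT_CL and 0.839, 0.483 and 1.13 in ERRKO_CL and Tesc at 13.97, 7.50 and 10.6 in WT_CL and 0.523, 0.166 and 0.329 in ERRKO_CL. In each the agonist-treated WT libraries stood above the 3 other groups. On recovered reads edgeR did not call the interaction of Elovl3 (adjusted p = 0.23) or Fam131c (adjusted p = 0.056), both near 0 with PBS. Acsl5 (-2.67 ± 0.27, adjusted p = 5.2e-04), Elovl6 (-2.46 ± 0.48, adjusted p = 0.018) and Gnas (-1.28 ± 0.20, adjusted p = 0.0061), which were expressed in all 4 groups, had more negative differences with agonist. The interaction of Elovl6 was not called without WT_PBS replicate 2 or ERRKO_CL replicate 2 (adjusted p = 0.051 and 0.05). With PBS the genotype difference was not called for Acsl5 (-0.18 ± 0.19, limma adjusted p = 0.49) or Elovl6 (-0.79 ± 0.34, adjusted p = 0.093).

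Other interactions had the opposite sign. Nnat was at 208, 138 and 195 in WT_PBS and 800.5, 789 and 927 in ERRKO_PBS, already a gain (2.23 ± 0.17, limma adjusted p = 9.5e-07). WT_CL was by far the lowest group, and the interaction was 3.78 ± 0.24, adjusted p = 8.6e-06. For Gadd45b (2.91 ± 0.41, adjusted p = 0.0032) and Phgdh (2.10 ± 0.31, adjusted p = 0.0039) WT_CL was also by far the lowest group. With PBS Phgdh was higher in ERRKO as well (1.78 ± 0.22, adjusted p = 5.6e-05), and Gadd45b was not called (0.71 ± 0.29, adjusted p = 0.081). Slc27a2, a peroxisomal and microsomal acyl-CoA synthetase, was at 42.3, 47.7 and 34.8 in WT_PBS and 0.403, 0.523 and 1.17 in ERRKO_PBS and then at 59.3, 48.8 and 42.5 in WT_CL and 12.5, 14.6 and 13.8 in ERRKO_CL, so that the loss was smaller with agonist (3.34 ± 0.29, adjusted p = 1.4e-04). Tusc3, an oligosaccharyltransferase subunit, was high in WT_PBS only, at 197, 185 and 232 in WT_PBS and 10.2, 10.9 and 8.73 in ERRKO_PBS against 14.5, 14.01 and 14.9 in WT_CL and 12.0, 10.1 and 12.2 in ERRKO_CL (3.96 ± 0.16, adjusted p = 1.3e-07). Akr1cl, which has close paralogs, was near 0 in every group but WT_PBS (3.62 ± 0.42, adjusted p = 8.7e-04, not called by edgeR at an adjusted p of 0.13), and S100a8 was raised in ERRKO_CL alone (2.81 ± 0.46, adjusted p = 0.0072). The plot of both contrasts places these genes away from the diagonal.

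**Figure D5:**
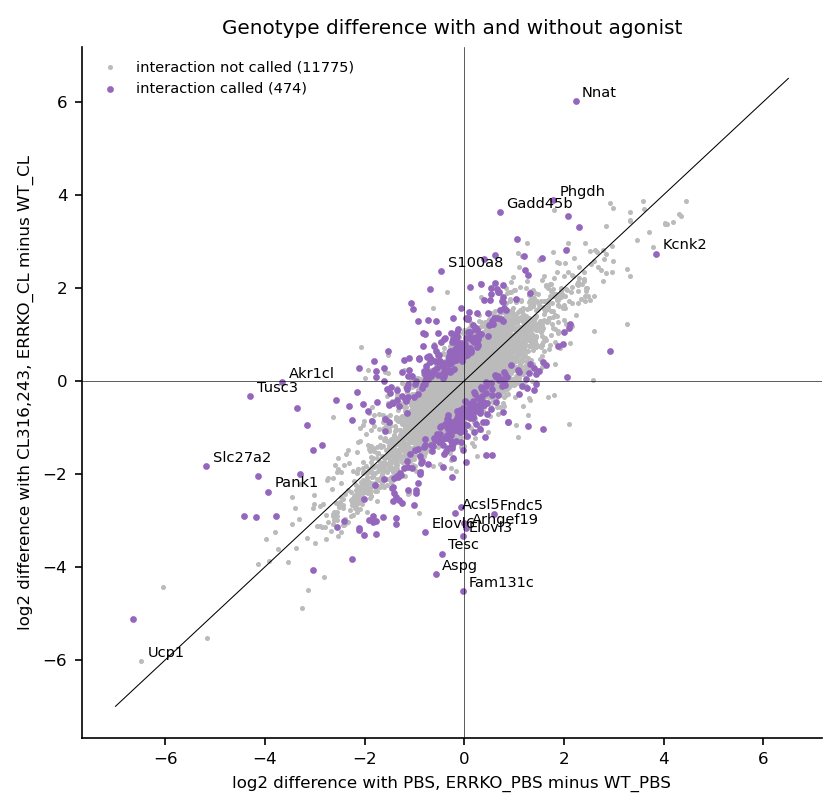
Genotype difference with CL316,243 (vertical axis, log2) against that with PBS (horizontal axis, log2) for 12249 genes, with the 474 called for the interaction in purple and the line of equal differences drawn. Fam131c and Elovl3 lie near 0 with PBS and below -3 with agonist, and Tusc3 and Akr1cl lie below -3 with PBS and near 0 with agonist.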

How the data were processed

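RNA was extracted from brown adipose tissue and 1 µg of total RNA per library was made into TruSeq libraries, per the labels' protocols. Software in the submitters' processing notes comprises the aligner STAR 2.3.0, the trimmer cutadapt, bcl2fastq 2.16.0.10 and edgeR; the builds mm9 and mm10 are listed without a role. How reads were counted, with which annotation and with or without strand, is not given in the sources used here; reads of overlapping and antisense genes may be mixed. The authors deposited RPKM for 24452 genes in 12 libraries, of which 6296 genes were at 0 in every library. They also deposited, for 12380 genes, read counts divided by a size factor (a normalised signal). Of these values 100% came out as whole reads within 0.01, and these recovered reads give the depth. The second set also holds 4 stray columns with 9 filled cells, which were left out.

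RPKM was divided per library by a median-of-ratios factor from 14005 genes above 0 everywhere. Factors were 0.707 to 0.719 for WT_CL and 1.15 to 1.19 for ERRKO_CL. Genes with a mean deposited RPKM of at least 0.5 were fitted in limma 3.58.1 (R 4.3.3) with trend on log2 of scaled RPKM plus 0.5, as 4 group means over all 12 libraries with 8 residual degrees of freedom, and p-values were adjusted by Benjamini-Hochberg over 12249 genes. The scripts were tested on simulated data. The count test on recovered reads (edgeR 4.0.16, quasi-likelihood) called 5083 genes for ERRKO_CL against WT_CL and 412 for the interaction. DESeq2 1.42.0 was a further alternative.

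The genes and lists were chosen with earlier results of these data known. Named genes are the 12 largest gains and losses without overlap of libraries, up to 4 members of each list by p, the isoform pairs, the 6 largest interactions in each direction and 12 fixed genes; a few genes that this rule names are not reported here. Adipoq, Angptl8, Fasn, Hcar2, Mest, Nrip1, Pcx, Pdhb, Mpc2, Atp5g3, Slc25a10, Sco2, Iars2, Lars2 and Sars2 were chosen after their values were seen, and Fars2, a mitochondrial enzyme, was then taken out of the cytosolic tRNA synthetase list. Gene coordinates are from GENCODE M21 on GRCm38, and RefSeq promoters on GRCm38.p6 matched 9797 tested genes. Replicate numbers of WT_CL and ERRKO_CL do not pair the samples in the labels: the deviations of same-numbered libraries correlated at 0.254, 0.069 and 0.294. Alternatives were other scalings, pseudocounts, filters, tools and sample sets.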

Additional observations from a re-analysis of the deposited data

Results flagged for a closer look

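Among the genes named in the report, 53 had a genotype difference that itself differed between CL316,243 and PBS (limma interaction, Benjamini-Hochberg adjusted p under 0.05 over 12249 genes). In 33 of them the call held on leaving out each of the 12 libraries in turn, and in 20 at least 1 library ended it. The values below are log2 differences with CL316,243 minus those with PBS.

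Held in each of these fits and negative were Fam131c (-4.49), Aspg (-3.59), Fndc5 (-3.46), Elovl3 (-3.31), Tesc (-3.26), Arhgef19 (-3.20) and Acsl5 (-2.67). Except for Acsl5 these had means under 1 RPKM in both PBS groups. Smaller negative values that held came from Gnas (-1.28), Nampt (-1.14), Timm8a1 (-1.14), Kcnk2 (-1.12), Cox11 (-1.10), Letmd1 (-1.09), Tstd3 (-1.04), Nsdhl (-1.02), Rrm1 (-0.88), Abhd6 (-0.84), Iars2 (-0.73), Aars2 (-0.70), Gars (-0.70), Tfb2m (-0.68) and Foxred1 (-0.68). Among these Kcnk2 had a smaller gain with agonist, and Iars2 was at 0.11 ± 0.09 with PBS and -0.62 ± 0.09 with agonist. Nsdhl was not called with PBS (-0.09 ± 0.13, limma adjusted p = 0.66). The others were genes with a larger measured loss under CL316,243. Tstd3 was under 1 RPKM in both ERRKO groups, so that its value follows its WT level.

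Held and positive were Tusc3 (3.96), Nnat (3.78), Akr1cl (3.62), Slc27a2 (3.34), Gadd45b (2.91), S100a8 (2.81) and Phgdh (2.10). Pank1 (1.56) lost less with agonist than with PBS. Kng2 (1.51) was near 0 in both ERRKO groups, so that its value follows its WT level, a mean of 58.3 with PBS and 20.6 with agonist. Apcdd1 (1.47) and Gstm1 (1.25) gained more.

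Lost on leaving out at least 1 library were the positive values of Rarres2 (1.47), Cideb (1.25), Cbs (1.01), Cpt1b (0.88) and Sco2 (0.77). The negative ones were Elovl6 (-2.46), Car14 (-1.58), Gk (-1.30), Pdhb (-1.24), Mpc2 (-1.13), Gpd1 (-1.0), Hk2 (-0.92), Hk1 (-0.84), Atp5g3 (-0.80), Sars2 (-0.72), Lars2 (-0.63), Tfam (-0.61), Dlst (-0.59), Acad8 (-0.54) and Afg3l2 (-0.53).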

How the results depend on the processing

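Of 199 tested genes named in the report, 184 were called between ERRKO_CL and WT_CL, and 172 of these kept their direction and their call under every alternative that gave them an adjusted p. On the deposited RPKM, without scaling, 9451 genes were called, 8640 higher and 811 lower, against 5074, 2433 and 2641. Of the 184 named calls that scale kept 173, ended 7 (Ccl27a, Ebf2, Got1, Hk2, Kcnk3, Mest and Sars2) and turned 4, Atp5g3 (0.26), Tusc3 (0.36), Iars2 (0.090) and Sco2 (0.13). Atp5g3 was also positive after quantile normalisation (0.12). The median of 28 of 69 lists changed sign on the deposited scale. Among genes not called, Shmt2 (0.51) and Cox4i2 (0.13) were positive on that scale, as was Akr1cl (0.0042), which lay at -0.091 to 0.072 with 1 library left out. Fabp4 was at 0 after quantile normalisation. Esrrg lay at -0.10 to 0.14 with 1 library left out and at -0.064 without replicate 3 of both ERRKO groups. Left-out libraries gave 4268 to 5493 calls, with 1980 to 2624 higher and 2243 to 2869 lower. The interaction count of 474 was 220 to 811 with 1 library left out, 212 without replicate 3 of both ERRKO groups and 823 with DESeq2. A model with a replicate block called 4929 genes and 365 interactions, ended none of the 184 named calls and 10 of the 53 named interactions, and not every pair of same-numbered libraries deviated together. edgeR on recovered reads ended 1 of the 184 calls (Eno3) and 9 of the interactions. Depth, at 8979123 to 12954186 recovered reads per library in the CL316,243 groups, limits genes near 0, where a value of 0 does not show that a gene was off.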
